A study of Mus musculus with 22 samples.

Results

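The replicative helicase unwinds DNA ahead of the replication fork. The genes described here are the 10 that were listed for it by name, Mcm2, Mcm3, Mcm4, Mcm5, Mcm6, Mcm7, Mcm10, Cdc45, Gins1 and Gins2, out of 46882 genes in the table. All 10 were found, and all 10 passed the filter of a mean of at least 5 normalized counts in every fit. RNA was measured with QuantSeq, which reads each transcript near its 3′ end, in 16 libraries. They were 2 libraries of MC38 cells, a colon carcinoma line from a C57BL/6 mouse (labelled day 0), 2 of normal skin of wild-type C57BL/6N mice (labelled day 23), and 12 of tumors that grew from MC38 cells injected under the skin of the left flank. Of the tumors, 3 came from wild-type (WT) C57BL/6N mice at day 23, 3 from WT mice at day 46, 3 from RAG1-/- mice (B6.129S7-Rag1tm1Mom/J) at day 13 and 3 from RAG1-/- mice at day 23. All mice were labelled 8 to 12 weeks old. Rag1 is needed for the rearrangement of antigen receptor genes, so that RAG1-/- mice lack mature T and B cells. The tumors share 1 transplanted line, each RNA sample is a piece of a tumor that was also divided for DNA and flow cytometry, and the days match between the genotypes only at day 23.

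The 6 proteins MCM2 to MCM7 form a ring that is loaded onto origins of replication before S phase. The ring becomes an active helicase in S phase when CDC45 and the GINS complex, which contains GINS1 and GINS2, join it, and MCM10 is needed for the start of unwinding. Genes of this machinery are known targets of E2F transcription factors and are abundant in dividing cells, which is why they are read as proliferation genes in tumors.

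Libraries held 5589151 to 26134241 reads on genes, where 3 reads correspond to between 1.33 and 6.38 normalized counts, the floor used here. The lowest value of any of these genes was 66 reads, of Mcm10 in a skin library, so that all were far above the floor. Together they took 0.0315% to 0.0357% of the reads in skin, 0.187% to 0.191% in MC38 and 0.128% to 0.183% in the tumors. Floors cover counting error only. Rag1 itself had 1 to 12 reads in each of the 6 RAG1-/- tumors and 0 or 1 in the WT tumors, and a count of 3′ ends does not check a deletion that leaves the 3′ end of the transcript. The 4 T cell markers summed to 1.11 to 19.1 normalized counts in RAG1-/- tumors, 14.7 to 161 in WT tumors and 0 in MC38. The colon and simple epithelium markers were near absent from MC38, where Krt18, Krt19 and Cdx2 had 0 reads and the 7 genes summed to 4.28 to 7.82 normalized counts.

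The promoters of these genes are shown first because the genes differed together between skin and the other libraries. RefSeq (GRCm38.p6) gave 8 windows of 300 bases for 7 of the 10 genes, from 250 bases before to 50 after the start, with a pair of starts for Mcm7. Mcm4, Gins1 and Gins2 had no entry. For Mcm5 and Mcm6 the end of the window was not found near the start of any GENCODE transcript. Positions before and after the start are therefore those of the RefSeq start, which GENCODE does not share for these genes. An E2F element was searched as TTTNNCGC with each N a C or a G, on both strands. It was found in 4 of the 8 windows, those of Mcm3, Mcm5, Mcm6 and the first start of Mcm7, and in 2.26% of 32851 RefSeq windows of the same length. The element CCAAT, bound by NF-Y, was in 8 of 8 windows and in 37.4% of all windows. The CHR element TTTGAA, known from genes of late cell cycle phases, was in 2 of 8 (Mcm2 and Cdc45) and in 17.9% of all. With only the 250 bases before the start the counts were 3, 8 and 2 of 8, against 1.86%, 33.8% and 15.99% of all windows. A match is a description of these letters and not a binding site.

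The stretches with an E2F element are on chr8:75109346-75109377 (plus strand) for Mcm5, chr1:128359735-128359825 (minus strand) for Mcm6, and chr5:138172031-138172058 and chr5:138171855-138171872 (minus strand) for Mcm7. Those of Mcm3 are on chr1:20820281-20820298 and chr1:20820263-20820279 (minus strand). They are written 5′ to 3′ on the strand of the gene, and the capitals mark the matches to the E2F element. In Mcm5, and at the first place in Mcm6, matches on opposite strands overlap in 1 run of capitals.
Mcm5, before the start: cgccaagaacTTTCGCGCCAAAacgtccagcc
Mcm6, before the start: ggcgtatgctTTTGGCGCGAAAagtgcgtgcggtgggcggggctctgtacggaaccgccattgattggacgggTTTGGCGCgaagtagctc
Mcm7, before the start: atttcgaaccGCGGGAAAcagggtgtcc
Mcm7, after the start: cgacgTTTCGCGCcaatt
Mcm3, after the start: ccgtgGCGGGAAAacttg
Mcm3, after the start: gaagtTTTGGCGCcaag
Cdc45 and Mcm10 had no E2F match in their windows. They are shown for the contrast, with the CCAAT element in capitals in either orientation, from chr16:18811973-18811995 and chr2:5012800-5012899 (minus strand).
Cdc45, before the start: cgaaccgtgtATTGGaaacttat
Mcm10, before the start: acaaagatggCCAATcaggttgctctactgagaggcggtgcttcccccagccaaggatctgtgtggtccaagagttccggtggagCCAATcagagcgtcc

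**Figure D1:**
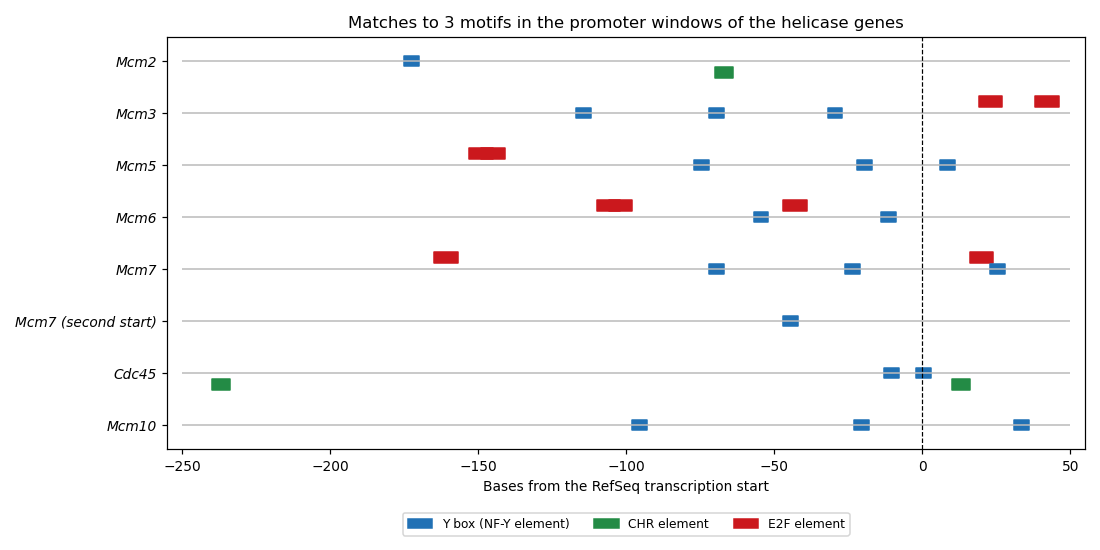
Positions of the 3 elements in the 8 promoter windows, in bases from the RefSeq start (dashed line). E2F elements (red) lie in 4 windows, CCAAT elements (blue, drawn as Y box) in 8 and CHR elements (green) in 2.

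All 10 genes were higher in MC38 cells than in normal skin, by 2.64-fold for Gins1 to 7.28-fold for Mcm3. This comparison asks how far the helicase genes of the injected line stand from those of the tissue the tumors grew in. Of all 16780 genes tested 20.8% were called higher, and 41.2% were called lower, so the background moved mostly the other way. The median log2 fold change of the 10 genes was 1.98, against -0.40 over all genes tested. The groups did not overlap for any of the 10, as for 30.6% of all genes in that direction.

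Of the ring subunits, Mcm3 (chr1:20802968-20820312, minus strand) stood furthest from skin. Its normalized counts were 713 and 559.6 in the skin libraries and 4268 and 4968 in MC38, a log2 fold change of 2.86 (SE 0.17, limma adjusted p = 0.000288). Mcm6 (chr1:128331590-128359664) had 1151 and 991 in skin and 5312 and 4452 in MC38, and Mcm7 (chr5:138164583-138172422) had 947 and 767 in skin and 3486 and 3525 in MC38. Their log2 fold changes were 2.19 (SE 0.15) and 2.04 (SE 0.15). Mcm5 (chr8:75109569-75128439), Mcm4 (chr16:15623897-15637400) and Mcm2 (chr6:88883474-88898780) had the smaller changes of the ring, of 1.75, 1.66 and 1.55. Mcm2 had 651 and 516 normalized counts in skin against 1726 and 1668 in MC38. Mcm4 is the member whose call depended on a library. Its adjusted p was 0.00138 in the 4 libraries and 0.0695 and 0.0760 without skin replicate 1 or 2, from limma.

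The ring genes did not differ from skin by the same amount. Set against the mean of the other 5 ring genes within each library, on the log2 scale, Mcm3 lay at -0.29 ± 0.06 in skin (SD, n = 2) and 0.74 ± 0.22 in MC38 (n = 2). Mcm2 moved the other way within the ring, from -0.44 ± 0.05 to -0.99 ± 0.01. Mcm7 was at 0.23 ± 0.02 and 0.26 ± 0.05. A ratio of this kind shows only that the genes changed unequally.

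The activators behaved alike in direction and not in size. Cdc45 (chr16:18780447-18811987) had 165 and 148 normalized counts in skin and 652 and 717 in MC38, a log2 fold change of 2.12 (SE 0.17). Gins1 (chr2:150905400-150931280), a subunit of GINS, had the smallest change of the 10, from 108 and 121 to 313 and 296, a log2 fold change of 1.40 (SE 0.19, adjusted p = 0.00296 from limma). Gins2 (chr8:120578633-120589304), also of GINS, rose from 93.8 and 111 to 357 and 424. Gins2 carries a limit of its own. The last 500 exonic bases of Gins2, where 3′ reads fall, lie 100% opposite exons of Gse1, a gene on the other strand, and without a stated strand setting in the counting the reads of both genes cannot be told apart. For Mcm7 the share of the last 500 bases opposite Cops6 was 12.8%, and for Cdc45 none lay opposite another gene. Mcm10 (chr2:4989714-5012791), the initiation factor, rose from 99.1 and 84.1 to 432 and 492, a log2 fold change of 2.32 (SE 0.20).

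**Figure D2:**
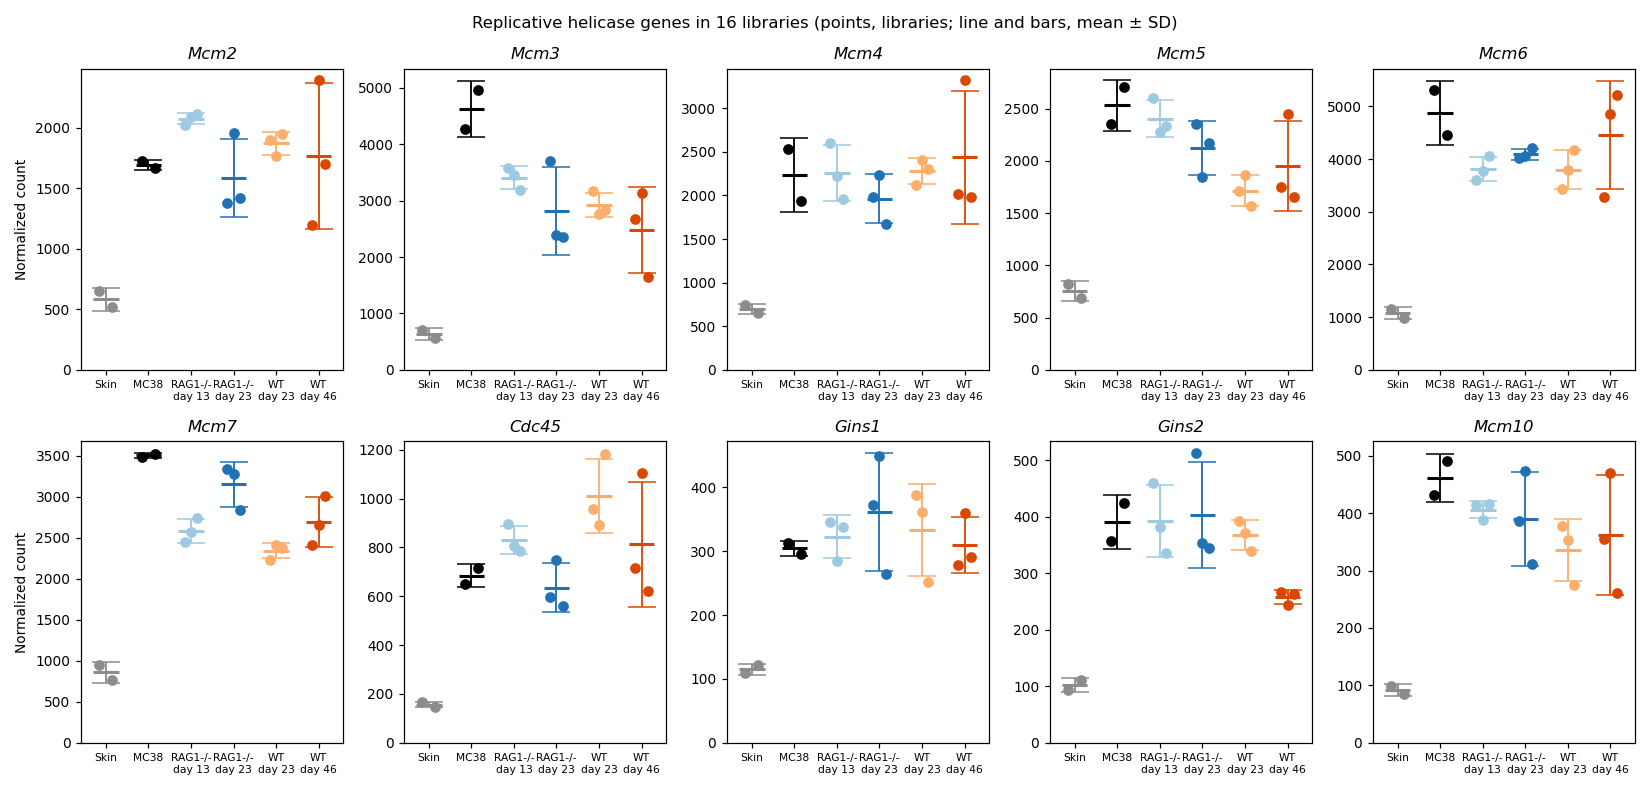
Normalized counts of the 10 genes in each of the 16 libraries. Points are libraries, the thick line is the group mean and the bars are ± 1 SD, with 2 libraries for skin and MC38 and 3 for each tumor group. The skin points lie below every other point for all 10 genes, and the tumor groups lie near MC38.

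The 4 tumor groups were also above skin for 10 of 10 genes each, called by limma in a fit of all 16 libraries. The shares of all genes called higher were 22.5% for WT day 23, 21.4% for WT day 46, 22.8% for RAG1-/- day 13 and 23.1% for RAG1-/- day 23. The median log2 fold changes of the 10 genes were 1.76, 1.71, 1.84 and 1.91 in that order, against -0.17, -0.18, -0.19 and -0.21 over all genes. Single genes ranged from 1.18 for Mcm5 in WT tumors of day 23 to 2.68 for Cdc45 in the same tumors. These comparisons and that of MC38 share the 2 skin libraries. Skin and the other libraries also differed in their cells. The keratinocyte markers summed to 266457 to 272995 normalized counts in skin and 227 to 1734 in MC38 and tumors. Those of fibroblasts summed to 352446 to 409524 in skin and 4955 to 48183 elsewhere. Of the fibroblast markers only Pdgfra went the other way, with a mean of 533 in skin, 1235 in MC38 and 775 to 1171 in the tumor groups. The part of either list in the difference was not tested. In such bulk samples fewer cells of a type and less RNA per cell cannot be told apart.

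The size of these differences, not their direction, depended on how libraries were scaled. Rescaling to the same upper quartile or the same total moved the median of all genes in MC38 minus skin from -0.40 to -0.08 and 0.01. The share of calls that were higher then went from 33.5% to 43.5% and 46.3%. In the tumors minus skin that share was 40.1% to 40.5%, and became 52.1% to 54.0% with the upper quartile and 54.2% to 58.5% with the same total. The median of the 10 genes in MC38 minus skin was 2.30 and 2.39 with these scalings, and 10 of 10 were called higher in each.

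Other genes of DNA replication and the cell cycle were mostly higher in MC38 too. Of the 76 genes in the lists of licensing, other GINS and MCM genes, origin firing, fork progression, polymerases, S phase entry, nucleotide supply and mitosis, 75 were tested in MC38 against skin, and 58 were higher and 3 lower. Licensing had 7 of 10 higher, and its largest were Cdt1 (log2 fold change 2.59) and Cdc6 (2.42), which load the ring onto origins. Origin firing had 7 of 7 higher, led by Mtbp (3.01) and by Dbf4 (2.84), the activator of the kinase that phosphorylates the ring. Of the polymerases and clamp 18 of 24 were higher, led by Pold2 (2.19) and Pola2 (2.15).

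Fork progression had 3 of 4 higher, led by Tipin (1.83) and Clspn (1.24). Of E2F and S phase entry 9 of 11 tested genes were higher, led by Ccne1 (2.82) and E2f1 (2.11), and 2 were lower, Rb1 (-2.64) and E2f2 (-1.18). Rb1 restrains E2F factors. Nucleotide supply had 4 of 5 higher, with Rrm2 (2.95) and Tk1 (2.25), and mitosis 8 of 10, with Aurka (2.41) and Cdk1 (2.35). The relatives of the 10 genes were mixed. Gins3 (2.44) and Gins4 (0.90), which complete the GINS complex, were higher and Mcm9 (-1.88), a paralog outside the ring, was lower. The medians of the lists lay between 1.00 and 1.91, against 1.98 for the 10 helicase genes.

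**Figure D3:**
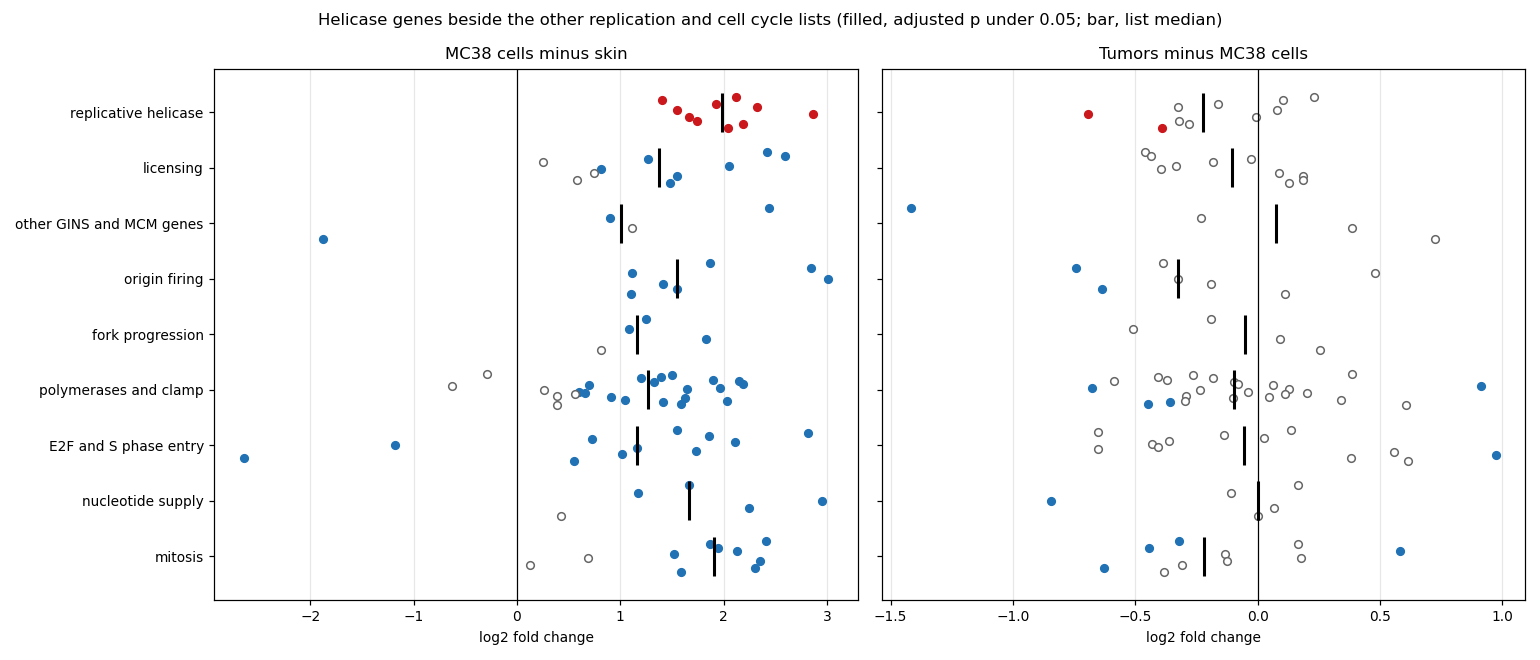
Log2 fold changes of the helicase genes (red) and of the 8 other lists (blue) in MC38 minus skin and in the mean of the tumor groups minus MC38. Filled points had an adjusted p under 0.05, and the bar is the median of the list. All 10 helicase genes lie to the right of 0 in the first panel, and 2 are filled in the second.

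Against the injected cells the tumors differed little. This comparison asks whether the helicase genes changed when the cells grew in mice. In the mean of the 4 tumor groups, 2 of the 10 genes were called lower than MC38 and 0 higher, by limma over all 16 libraries. Of all 16158 genes tested 8.01% were called lower and 16.5% higher. The median log2 fold change of the 10 was -0.22, against 0.07 over all genes. The genes called were Mcm3 and Mcm7.

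For Mcm3 the MC38 libraries held 4268 and 4968 normalized counts, and the RAG1-/- tumors of day 13 held 3585, 3458 and 3184. It had 3709, 2387 and 2347 in RAG1-/- tumors of day 23, 3166, 2765 and 2841 in WT tumors of day 23, and 2680, 3135 and 1646 in WT tumors of day 46. All 12 tumors lay below both MC38 libraries. The log2 fold change of the mean tumor was -0.69 (SE 0.20, adjusted p = 0.0178 from limma, exact permutation p = 0.0330 for 12 against 2 libraries, where the smallest possible is 0.0110). By group it was -0.94 (adjusted p = 0.00973) in WT tumors of day 46 and -0.74 (adjusted p = 0.0396) in RAG1-/- tumors of day 23, both called lower. In WT tumors of day 23 it was -0.66 and in RAG1-/- tumors of day 13 -0.44, with limma adjusted p of 0.0610 and 0.249. The value in WT tumors of day 23 passed with libraries scaled to the same total (adjusted p = 0.0389), with DESeq2 (0.036), with only the groups compared in the limma fit (0.00524), and without RAG1-/- day 23 replicate 1 (0.0367) or WT day 46 replicate 2 or 3 (0.0461 and 0.0176).

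For Mcm7 the MC38 libraries held 3486 and 3525 normalized counts, and the RAG1-/- tumors of day 13 held 2451, 2568 and 2738. In RAG1-/- tumors of day 23 it had 3338, 3275 and 2835, in WT tumors of day 23 2233, 2415 and 2380, and in WT tumors of day 46 2406, 2659 and 3010. Again all 12 tumors lay below MC38. The mean tumor differed by -0.39 (SE 0.11, adjusted p = 0.0190 from limma, exact permutation p = 0.0110). WT tumors of day 23 (-0.58, adjusted p = 0.00537) and RAG1-/- tumors of day 13 (-0.44, adjusted p = 0.0332) were called lower. In WT tumors of day 46 it was -0.39 and in RAG1-/- tumors of day 23 -0.16, with limma adjusted p of 0.0568 and 0.488. The value in WT tumors of day 46 passed with the upper quartile (limma adjusted p = 0.0437), with DESeq2 (0.0268) and without any 1 of 3 of the 16 libraries. Not overlapping with MC38 and lower were 9.34% of all genes.

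Both calls on the mean tumor rest on the 2 MC38 libraries. Without MC38 replicate 1 or 2 the limma adjusted p was 0.0790 and 0.233 for Mcm3 and 0.134 and 0.165 for Mcm7, and no member was then called. Over the other 14 libraries left out in turn and 11 other settings both stayed called. The calls per tumor group rested on fewer libraries still. Without MC38 replicate 2 the adjusted p of Mcm3 in WT tumors of day 46 was 0.115 and that of Mcm7 in WT tumors of day 23 was 0.0527. The call on Mcm7 in RAG1-/- tumors of day 13 was lost without any 1 of the 3 tumors or 2 MC38 libraries (adjusted p 0.0512 to 0.178), and that on Mcm3 in RAG1-/- tumors of day 23 was lost without any 1 of 11 of the 16 libraries. These were both MC38 libraries (0.105 and 0.267), tumors 2 and 3 of that group (0.124 and 0.126), and 7 libraries outside the comparison (0.0502 to 0.0592), namely the 3 RAG1-/- tumors of day 13, WT day 23 replicates 2 and 3 and both skin libraries. The macrophage markers summed to 35.9 to 48.9 normalized counts in MC38 and 6043 to 14783 in tumors. Those of fibroblasts summed to 4955 to 5649 and 13540 to 48183. Of the fibroblast markers only Pdgfra went the other way, with a mean of 1235 in MC38 and 775 to 1171 in the tumor groups. MC38 cells alone held a mean of 3688 of Col3a1, so this list does not mark host cells only. The part of either list in these differences was not tested.

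Mcm5 was called lower in WT tumors of day 23 only in the test of that group, which does not show a difference from the other groups. Its normalized counts there were 1709, 1866 and 1567, against 2355 and 2704 in MC38, a log2 fold change of -0.56 (SE 0.17, adjusted p = 0.0278 from limma). Without MC38 replicate 1 or 2 the adjusted p was 0.0702 and 0.232, and without WT day 23 replicate 1 or 3 it was 0.0580 and 0.0893. Over all 40 tests of a gene in a tumor group against MC38, 5 were called lower and 0 higher, and 26 had a negative value. Of all genes 7.29%, 5.60%, 5.24% and 5.98% were called lower in WT day 23, WT day 46, RAG1-/- day 13 and RAG1-/- day 23, and 14.9%, 14.8%, 13.4% and 13.0% higher. All of these tests share the 2 MC38 libraries. Mcm3, Mcm5, Mcm6, Mcm7 and Mcm10 were negative in 4 of 4 groups, and Gins1 in 0 of 4.

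Cdc45 and Mcm2 lay on the other side in WT tumors of day 23 and RAG1-/- tumors of day 13, where all tumors were above both MC38 libraries, as for 28.5% and 29.7% of all genes. In WT tumors of day 23 it had 959, 892 and 1182 normalized counts, against 652 and 717 in MC38, a log2 fold change of 0.55 (SE 0.21, adjusted p = 0.0770 from limma). It passed with only the groups compared (0.0271) and without WT day 46 replicate 2 or 3 (0.0297 and 0.0494). In RAG1-/- tumors of day 13 Cdc45 had 897, 806 and 787, a log2 fold change of 0.28 (adjusted p = 0.434). Mcm2 had 1726 and 1668 in MC38, 2028, 2087 and 2116 in RAG1-/- tumors of day 13 and 1896, 1769 and 1954 in WT tumors of day 23. Its log2 fold changes were 0.29 and 0.14 (limma adjusted p of 0.433 and 0.718), and neither was called. Gins2 in WT tumors of day 46 was at 267, 243 and 263, below the 357 and 424 of MC38 (log2 fold change -0.59, SE 0.20, adjusted p = 0.05 from limma, which was just above the threshold). Gins2 passed in limma with a pseudocount of 0.1 (adjusted p = 0.0454), a mean of at least 20 (0.0499) or the upper quartile (0.0427). It also passed with edgeR (0.0442) and DESeq2 (0.0296), and without any 1 of 4 of the 16 libraries. In the main limma fit of all 16 libraries Mcm2, Mcm4, Mcm6, Cdc45, Gins1, Gins2 and Mcm10 were called in no tumor group against MC38.

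Mcm4 and Gins1 were on neither side of the injected cells. Mcm4 had 2531 and 1938 normalized counts in MC38 and ranged over the 12 tumors from 1671 to 3322, with a median of 2174. Gins1 had 313 and 296 in MC38 and 252 to 449 in the tumors, with a median of 342. For both genes the MC38 libraries lay inside the range of the tumors.

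Mcm6 and Mcm10 lay on the low side of MC38 without being called. Mcm6 had 5312 and 4452 normalized counts in MC38 and 3285 to 5222 in the tumors, with a median of 4031 and a log2 fold change of the mean tumor of -0.28. Mcm10 had 432 and 492 in MC38 and 261 to 475 in the tumors, with a median of 382 and a log2 fold change of -0.32. Most tumors were below both MC38 libraries for either gene, and some were not.

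The place of Mcm3 within the ring can be given for the tumors too. Its log2 ratio to the mean of the other 5 ring genes was 0.74 ± 0.22 in MC38 (SD, n = 2), 0.41 ± 0.08 in RAG1-/- tumors of day 13, 0.19 ± 0.37 in RAG1-/- tumors of day 23, 0.34 ± 0.15 in WT tumors of day 23 and -0.04 ± 0.50 in WT tumors of day 46 (SD, n = 3 each). The tumor groups overlapped one another, RAG1-/- tumors of day 23 also overlapped MC38, and the widest spread was that of WT tumors of day 46. These ratios were not tested.

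Of the 76 other genes 3 were higher and 10 lower in the mean tumor than in MC38. The largest of them was Gins3 (log2 fold change -1.42, adjusted p = 0.000217 from limma), whose protein sits in GINS with those of Gins1 and Gins2. The MC38 libraries held 509 and 503 normalized counts of it, and the 12 tumors 114 to 322. For 11 of the 76 all 12 tumors lay below MC38, as for 9.34% of all genes. For 4 all tumors lay above it, namely Donson, Pold4, E2f8 and Rb1, of which Donson and E2f8 were not called. The share of all genes in that direction is not given here. The loader genes Cdt1 and Cdc6, named above, were among the 11 and were not called. Of the 10 licensing genes 0 were called, with 4 positive. Dbf4 (-0.74) and Ticrr (-0.64) of origin firing were lower. Pole (-0.68) and Rpa2 (-0.45) of the polymerase list were lower and Pold4 (0.91) was higher. Rrm2 (-0.84), Plk1 (-0.63) and Birc5 (-0.44) were lower, and Rb1 (0.97) and Bub1 (0.58) were higher.

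**Figure D4:**
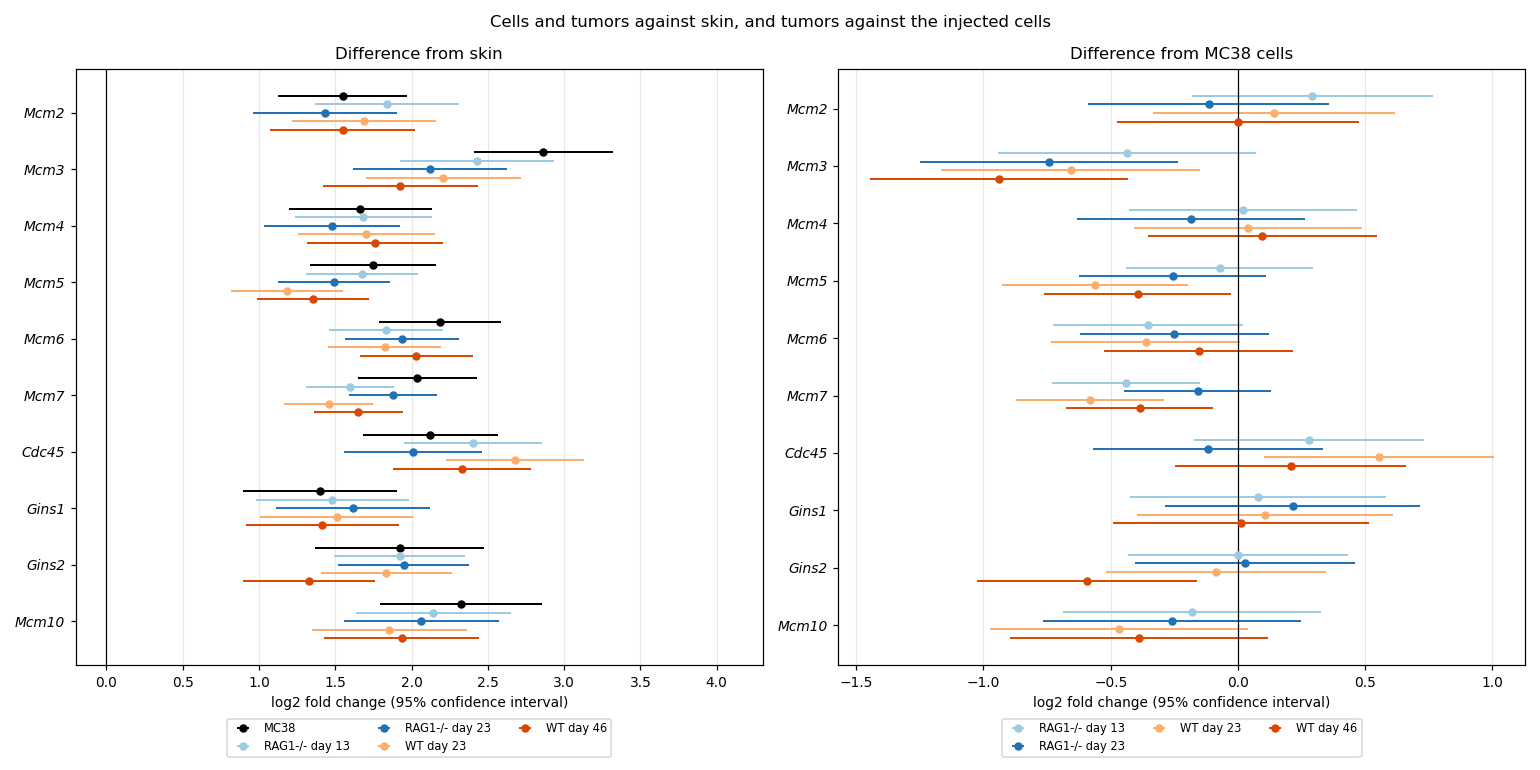
Log2 fold changes with 95% confidence intervals of the 10 genes, for MC38 and each tumor group minus skin (left) and each tumor group minus MC38 (right). On the left every interval lies above 0. On the right most intervals include 0, and those of Mcm3 and Mcm7 lie to the left in most groups.

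Between the days of each genotype no helicase gene was called. These comparisons ask whether the genes changed as the tumors grew. In RAG1-/- tumors, day 23 minus day 13, 0 of 10 genes had an adjusted p under 0.05 with limma, edgeR or DESeq2. With limma 0 had an unadjusted p under 0.05, and that of Mcm7 was just above it, at 0.05005. Among all 14746 genes tested limma called 0, which is 0.00% of them, and 11.7% had an unadjusted p under 0.05. The log2 fold changes ran from -0.41 for Mcm2 to 0.28 for Mcm7.

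The groups did not overlap for 3 of the 10 genes, as for 19.4% of all genes. Mcm2 had 2028, 2087 and 2116 normalized counts at day 13 and 1380, 1962 and 1419 at day 23 (log2 fold change -0.41, SE 0.21, adjusted p = 0.459 from limma). Cdc45 had 897, 806 and 787 at day 13 and 597, 749 and 560.3 at day 23 (-0.39, SE 0.20, adjusted p = 0.462). Mcm7 went up, from between 2451 and 2738 to between 2835 and 3338 (0.28, SE 0.13, adjusted p = 0.428). With 3 tumors against 3 the exact permutation p was 0.1 for each, the smallest it can be.

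In WT tumors, day 46 minus day 23, 0 of 10 genes were called by limma, edgeR or DESeq2 (0.00% of all genes by limma), and 1 had an unadjusted p under 0.05 with limma, as had 8.55% of all genes. That gene was Gins2. It had 392, 371 and 339 normalized counts at day 23 and 267, 243 and 263 at day 46, so that all tumors of day 46 lay below those of day 23. The log2 fold change was -0.51 (SE 0.19, 95% confidence interval -0.91 to -0.10, adjusted p = 0.499 from limma, exact permutation p = 0.1). It was the only member of the 10 whose groups did not overlap, as for 12.5% of all genes. Its reads carry the overlap with Gse1 described above. The other 9 genes lay between -0.35 for Cdc45 and 0.21 for Mcm6.

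The SD over the WT tumors of day 46 was larger than over those of day 23 for 8 of the 10 genes, Gins1 and Gins2 being the others. Mcm2, for example, had 1195, 2396 and 1706 normalized counts at day 46 against 1769 to 1954 at day 23, and Mcm4 had 2012, 3322 and 1985 against 2120.5 to 2412. WT day 46 replicate 2 was the highest of the 12 tumors for Mcm2 and Mcm4 and the lowest for Gins2. WT day 46 replicate 3 was the highest for Mcm6 and the lowest for Mcm3 and Mcm10. Library depth was not the same either, and the deepest and the shallowest tumor were both RAG1-/- tumors of day 23. The change between days did not differ detectably between the genotypes. In the test of that difference 0 of 10 genes were called by limma, edgeR or DESeq2 and 0 had an unadjusted p under 0.05 with limma, as had 8.67% of all genes. The largest values were -0.53 for Gins2 (95% confidence interval -1.11 to 0.04) and 0.35 for Mcm5, and the days compared differ between the genotypes.

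At day 23, the day both genotypes share, 0 of the 10 genes were called between WT and RAG1-/- tumors, where limma called 0.278% of all genes. Without adjustment 2 were under 0.05, as were 11.2% of all genes, and these were also those whose groups did not overlap (16.1% of all genes). Cdc45 had 959, 892 and 1182 normalized counts in WT tumors and 597, 749 and 560.3 in RAG1-/- tumors, a log2 fold change of 0.67 (SE 0.20, 95% confidence interval 0.24 to 1.10, adjusted p = 0.206 from limma). Mcm7 was lower in WT, at 2233, 2415 and 2380 against 3338, 3275 and 2835 (log2 fold change -0.42, SE 0.13, 95% confidence interval -0.71 to -0.14, adjusted p = 0.221). The exact permutation p was 0.1 for both, the smallest 3 tumors against 3 allow. Neither gene passed adjustment, and 2 of 10 genes without overlap is near the 16.1% of all genes.

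Over both days of each genotype, 6 tumors against 6, 0 of 10 genes were called, where limma called 0.712% of all genes. Without adjustment 2 were under 0.05, as were 11.4% of all genes. Mcm5 had a median of 1728 normalized counts in WT tumors (lowest 1567, highest 2449) and 2305 in RAG1-/- tumors (1845 to 2602), a log2 fold change of -0.31 (SE 0.11, adjusted p = 0.292 from limma, exact permutation p = 0.0325). Gins2 had a median of 303 in WT (243 to 392) and 367 in RAG1-/- (335 to 512), a log2 fold change of -0.35 (SE 0.13, adjusted p = 0.319, exact permutation p = 0.0584). The genotypes overlapped for 10 of 10 genes, and did not for 0.983% of all genes. Of the 76 other replication and cell cycle genes 0 were called by limma in any comparison among the tumors. The clamp loader gene Rfc5 was the 1 that did not overlap between the genotypes, at 520 to 758 normalized counts in WT and 789 to 1117 in RAG1-/- tumors. In WT minus RAG1-/- over both days 17 of the 76 were positive, with a median log2 fold change of -0.104 against 0.0065 over all genes. At day 23 alone 31 of the 76 were positive, with a median of -0.033 against 0.0073. This lean to the low side in WT was not tested.

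**Figure D5:**
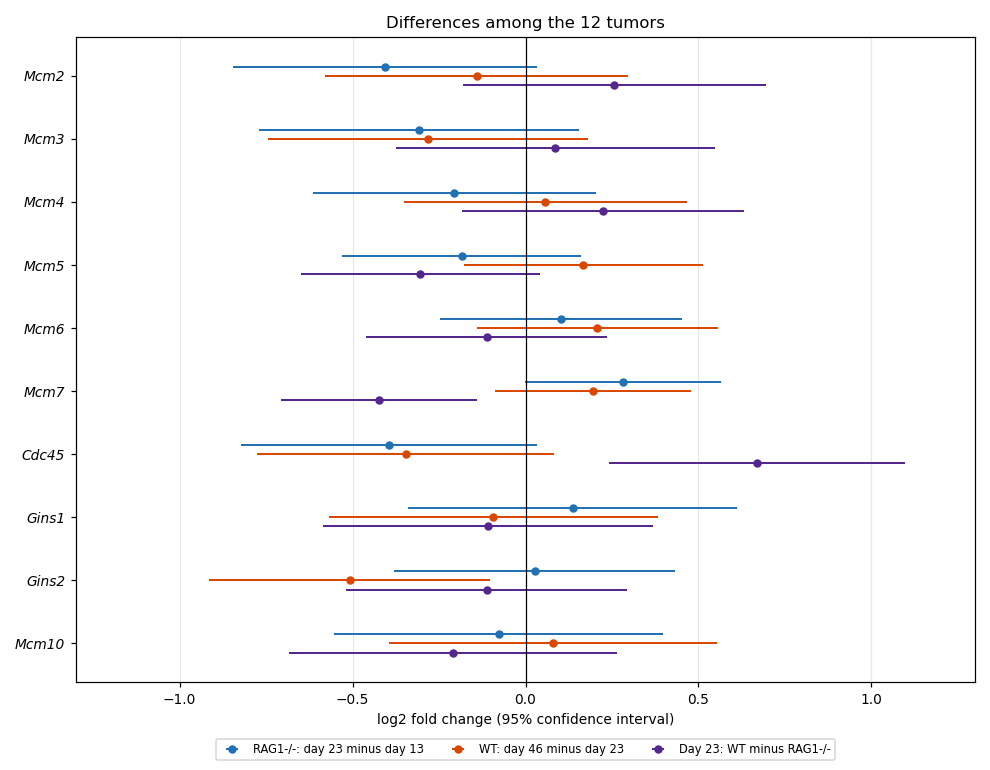
Log2 fold changes with 95% confidence intervals of the 10 genes in 3 comparisons among the 12 tumors, between the days of each genotype and between the genotypes at day 23. Intervals that leave out 0 are those of Gins2 between the days in WT and of Cdc45 and Mcm7 between the genotypes, and none passed adjustment.

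Each gene also has an order over the 6 groups. Skin was lowest for 10 of 10 genes and overlapped no other group. MC38 was highest for Mcm3, Mcm5, Mcm6, Mcm7 and Mcm10. For Mcm3 and Mcm7 it overlapped no tumor group, and for Mcm5 and Mcm6 it overlapped the next group down. For Mcm10 it did not overlap the next group down, RAG1-/- tumors of day 13. It did overlap RAG1-/- tumors of day 23 (highest 475) and WT tumors of day 46 (highest 470), against 432 and 492 in MC38. Mcm2 was highest in RAG1-/- tumors of day 13, Mcm4 in WT tumors of day 46, Cdc45 in WT tumors of day 23 and Gins1 and Gins2 in RAG1-/- tumors of day 23. For Mcm4, Mcm5, Mcm6, Cdc45 and Gins1 every neighbouring pair of groups above skin overlapped.

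Within the 12 tumors the 10 genes did not rise and fall as 1 group. Over these libraries, which include the 4 groups, the Pearson correlations of the 45 pairs of genes ran from -0.65 for Mcm7 with Cdc45 to 0.76 for Mcm4 with Cdc45, with a median of 0.24. Against the mean of the other 9, Mcm10 had the highest correlation (0.70) and Mcm6 the lowest (-0.09). The genes most like the mean of the 10, among 12069 genes, were Ncapg2 (r = 0.94), Sap30 (0.92), Eaf1 (0.90) and Ruvbl1 (0.89). Their Spearman correlations were 0.90 to 0.95, and without the 2 tumors farthest from the median their r was 0.89 to 0.93. These are descriptions over 12 libraries that share scaling and groups. The spread over the 12 tumors, as the SD in percent of the mean, was 13.4% for Mcm7, 13.7% for Mcm6 and 23.6% for Cdc45. Over all 16 libraries the skin libraries stand apart from the rest, so no pooled correlation is given.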

How the data were processed

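Tumor, cell and skin RNA was sequenced as 3′ tags (QuantSeq) on an Ion Proton. The authors trimmed reads with cutadapt and Trimmomatic (reads under 22 nt removed), aligned them to mm10 with STAR and then Bowtie2, removed rRNA, counted primary alignments per gene with HTSeq-count and normalized with DESeq2. The strand setting and annotation are not given in the sources used here. The deposited values are signal, in that each is a read count divided by the size factor of its library, and the whole read counts could be recovered from 100% of values (tolerance 0.01).

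From these values, limma (3.58.1, R 4.3.3) with an intensity trend was fitted on log2(normalized count + 1) to genes with a mean of at least 5, with Benjamini-Hochberg adjustment over all genes tested and a threshold of 0.05. A fold change on this scale understates that of low genes. MC38 minus skin used those 4 libraries, comparisons among tumors the 12 tumors, and comparisons of tumors with MC38 or skin all 16. As alternatives, the recovered reads were tested with edgeR (4.0.16) and with DESeq2 (1.42.0), beside other pseudocounts, filters, scalings and each library left out. The fits were tested on simulated data. Of 100 genes changed by 1 on the log2 scale limma recovered 20% for MC38 minus skin and 36% for the days in RAG1-/-, and of 100 changed by 2 it recovered 74% and 88%. The labels do not say whether the MC38 and skin libraries are separate cultures and animals, so p-values measure the spread between these samples.

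The 10 genes and the other lists were chosen with earlier results of these data known. Genes were named by rule: the 10 members, at most 2 genes per list and direction with the largest change among those called, any list gene whose groups did not overlap where under 5 did, and the 5 genes most like the mean of the 10, of which 1 is not reported here. A table of antibody-treated tumors was not used, and 6 columns of it match no label. Positions are those of GENCODE M21 on GRCm38, and the promoters are RefSeq sequences of GRCm38.p6.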

Additional observations from a re-analysis of the deposited data

Results flagged for a closer look

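In 20 groups of 6 tumors (10 genes in each genotype), 3 values stood further from the rest than Dixon's 95% critical value for 6 samples allows. Chance flags about 1 in 20 groups when samples are alike and groups independent. Here each group pooled the days of a genotype, and the genes share their tumors, so that rate does not apply directly. Mcm3 in WT day 46 replicate 3 was at 1646 normalized counts, with a gap of 0.68 of the range of WT tumors. Mcm4 in WT day 46 replicate 2 was at 3322, with a gap of 0.68, and Mcm5 in the same tumor was at 2449, with a gap of 0.66. No day-change difference between the genotypes passed its test for any of the 10 genes.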

How the results depend on the processing

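The 10 of 10 calls above skin held in each tumor group under all 11 other settings and all 16 libraries left out in turn, and in MC38 minus skin under 11 settings and with 9 to 10 called over its 4 libraries. The 0 calls among the tumors held under all 11 settings and 12 libraries left out. Against MC38 the counts of members called moved, and the cause was not tested. For WT day 23 the count higher went from 0 to 1 with only the groups compared, and the count lower from 2 to 1 with no filter, no trend or the replicate block and to 3 with the same total, DESeq2 or only the groups compared. For WT day 46 the count lower went from 1 to 2 with a pseudocount of 0.1, a mean of at least 20 or edgeR, and to 3 with the upper quartile or DESeq2. For RAG1-/- day 13 it went from 1 to 0 with no filter, the same total or no trend and to 3 with only the groups compared. For RAG1-/- day 23 it went from 1 to 0 with no filter, no trend, the replicate block or edgeR. With 1 library left out, the count higher was 0 to 1 for WT day 23, and the counts lower were 0 to 3 for WT day 23, 0 to 3 for WT day 46, 0 to 1 for RAG1-/- day 13, 0 to 1 for RAG1-/- day 23 and 0 to 3 for the mean tumor. Mcm5 in WT day 46 minus day 23 (0.17) was -0.0085 to 0.27 with 1 library left out, and turned without WT day 46 replicate 2. Of 2557 alternative values of 103 log2 fold changes, 2491 kept their direction and call, 38 lost and 27 gained the call, and 1 turned.

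Over all genes DESeq2 called 206, 43 and 58 genes in the RAG1-/- days, the WT days and their difference, where limma called 0. For WT minus RAG1-/- at day 23 it called 239 and edgeR 22, against 41 by limma, 22 with no filter and 15 with no trend. Over both days DESeq2 called 285, and 48 were called with no trend, against 105. Rescaling to the same total moved the median of all genes in the RAG1-/- days from -0.01 to -0.13 and in the day-change difference from 0.02 to 0.16. Same-numbered tumors deviated together (r over 0.1) in 6 of 18 pairs (r -0.30 to 0.24). Different-numbered tumors did so too in some pairs, with r up to 0.26. This check therefore does not settle whether the numbers pair the tumors. With the replicate block 0 of 10 genes were called in every comparison among tumors. What depth limits was not tested for these genes, which had at least 66 reads in every library.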
